A study of Mus musculus with 6 samples.

Results

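The 10 CC chemokine genes Ccl2, Ccl3, Ccl4, Ccl5, Ccl6, Ccl7, Ccl9, Ccl12, Ccl22 and Ccl24 were examined in primary microglia (PM). They were taken by symbol from the 24411 genes of the count tables, and all 10 were found. PM came from mixed glial cultures of the pooled brains of 12 ICR mice at 3 days of age, and were shaken off after 2 weeks of culture. One group of 3 libraries was treated with GSK-J4 (10 μM), an inhibitor of the H3K27 demethylase JMJD3, and the other group of 3 libraries with the same dose of GSK-J4 plus LPS (10 ng/ml), each labelled as 4 h. Whether PM received the inhibitor before or together with LPS is not given in the sources used here. Both groups carried the inhibitor, and untreated and LPS-only PM were not analysed here. The comparison therefore gives the difference that LPS made to these genes in the presence of the inhibitor, and not how far the inhibitor changed that difference. Levels are CPM, counts divided by a library size that was scaled by the trimmed mean of M values (TMM), and errors are SD over 3 libraries. The study's methods describe the replicates as biological, from independent RNA samples, and do not say whether each had its own pool of brains. The edgeR and DESeq2 p-values set the difference between the groups against the spread between these libraries, estimated with information shared across genes. Whether that spread includes the spread between pools of brains is therefore not known.

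CC chemokines are small secreted proteins with a pair of adjacent cysteines that draw leukocytes along a gradient through G protein-coupled receptors. Ccl2, Ccl7 and Ccl12 are monocyte chemoattractants that act through Ccr2. Ccl3 and Ccl4 are macrophage inflammatory proteins and Ccl5 is RANTES, all attractants of monocytes and T cells. Ccl6 and Ccl9 are rodent ligands of Ccr1, Ccl22 is a ligand of Ccr4 on T cells, and Ccl24 is an eotaxin that acts through Ccr3. Microglia are a known source of several of them when toll-like receptors are engaged.

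Of the 10 genes, 8 passed the filter on low counts and 2, Ccl12 and Ccl24, did not. Ccl2, Ccl3, Ccl4, Ccl5, Ccl7, Ccl9 and Ccl22 rose under LPS + GSK-J4 (edgeR quasi-likelihood test, called where the log2 fold change reached 1.5 with an adjusted p no higher than 0.01), and Ccl6 was not called. None was called lower, and none was lower at an unadjusted p under 0.05 by edgeR or DESeq2. Among all 10133 genes tested, 2.95% were called higher and 0.809% lower. The median log2 fold change was 3.54 over the 8 genes and -0.00 over all genes tested. Ccl2, Ccl7 and Ccl22 passed the filter only through the LPS + GSK-J4 libraries, where they were high. The count and the median over the 8 are therefore an account of them and carry no further weight. Ccl3, Ccl4, Ccl5, Ccl6 and Ccl9 had at least 10 counts in every library. In a fit of the 8594 genes that met this condition, 4 of these 5 were called higher, against 2.05% of all genes in that fit. The median log2 fold change there was 3.61 over these 5 and 0.0006 over all genes in that fit. Fold changes ran from 1.36 for Ccl6 to 56.4 for Ccl4.

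**Figure D1:**
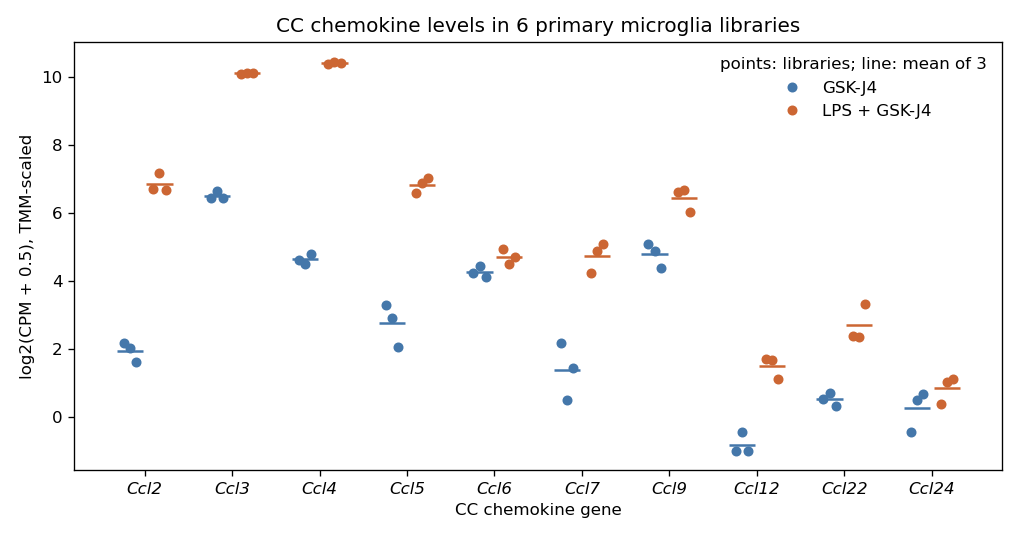
Level of each CC chemokine gene in the 6 libraries, as log2(CPM + 0.5) after TMM scaling. Points are libraries (GSK-J4 blue, LPS + GSK-J4 orange) and lines are means of 3 on this scale. The 2 groups are apart for every gene except Ccl24, and the gap is widest for Ccl4.

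Sequence before the start was at hand in RefSeq (build GRCm38.p6) for 5 of the 10 genes, Ccl3, Ccl6, Ccl9, Ccl12 and Ccl22. The 250 bases before the RefSeq start are shown for Ccl3, Ccl9 and Ccl22, the genes of these 5 that rose, so that promoters of genes with large, small and intermediate fold changes can be read side by side. Capitals mark matches, on either strand, to an NF-kB-like motif GGGNNNTCC, an ISRE-like motif GAAANNGAA, an AP-1 motif TGANTCA or a TATA box TATAAA.
Ccl3, chr11:83649379-83649628, minus strand: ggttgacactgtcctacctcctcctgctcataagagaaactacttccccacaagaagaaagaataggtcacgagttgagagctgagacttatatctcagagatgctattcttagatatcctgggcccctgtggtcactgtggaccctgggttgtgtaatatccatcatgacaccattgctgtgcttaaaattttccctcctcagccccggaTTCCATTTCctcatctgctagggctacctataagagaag
Ccl9, chr11:83578637-83578886, minus strand: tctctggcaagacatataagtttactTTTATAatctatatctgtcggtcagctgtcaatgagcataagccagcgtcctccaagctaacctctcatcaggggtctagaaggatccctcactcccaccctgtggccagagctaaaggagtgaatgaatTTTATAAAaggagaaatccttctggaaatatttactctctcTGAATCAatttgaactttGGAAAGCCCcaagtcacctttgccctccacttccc
Ccl22, chr8:94745434-94745683, plus strand: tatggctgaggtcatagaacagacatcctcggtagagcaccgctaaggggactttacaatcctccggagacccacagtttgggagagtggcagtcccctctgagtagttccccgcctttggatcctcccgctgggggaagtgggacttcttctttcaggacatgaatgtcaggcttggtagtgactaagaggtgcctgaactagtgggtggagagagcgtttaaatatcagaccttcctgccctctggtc
The RefSeq start of Ccl22 lies inside the gene as GENCODE places it, so the end of its window overlaps the GENCODE gene. The Ccl3 window held 1 ISRE-like match, read as TTCCATTTC on the printed strand, and the other 3 motifs were not in it. The Ccl9 window held 1 NF-kB-like match, 1 AP-1 match and 3 TATA box matches, of which 2 overlap on opposite strands. No match to the 4 motifs lay in the Ccl22 or Ccl6 window, and the Ccl12 window held 1 TATA box match and none of the other motifs. Among 32851 promoter windows of this length, 15.2% held the NF-kB-like motif, 7.13% the ISRE-like motif, 6.75% the AP-1 motif and 12.4% the TATA box, so a match is a description of the letters and not a binding site.

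Among the Ccr2 ligands, Ccl2 lies on mm10 chromosome 11 (82035571 to 82037453, plus strand). Its level was 4.01, 3.59 and 2.57 CPM in the GSK-J4 libraries against 103, 144 and 99.9 CPM in the LPS + GSK-J4 libraries. The 3 LPS + GSK-J4 libraries were all far above the others, and replicate 2 was the highest of them. Its fold change was 32.9 (95% interval 23.6 to 45.8, log2 5.04 ± 0.23 SE, edgeR adjusted p = 1.13e-10), the second largest of the 8 genes. The GSK-J4 level rested on 40 counts over 3 libraries, and the LPS + GSK-J4 level on 884.

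Ccl7, the next gene on the same strand (82045712 to 82047525), stood at 4.01, 0.898 and 2.20 CPM in GSK-J4. Under LPS + GSK-J4 it stood at 18.3, 28.6 and 33.4 CPM, again with no overlap. The fold change was 11.1 (95% interval 6.48 to 19.1, log2 3.48 ± 0.37 SE, adjusted p = 3.82e-06). It was 4.20 on the log2 scale without GSK-J4 replicate 1 (adjusted p = 1.27e-06), the highest of the GSK-J4 libraries, and 3.02 without replicate 2 (adjusted p = 7.68e-06), the lowest. With 27 counts in all in GSK-J4, the spread of Ccl7 there was 66.0% of its mean.

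Ccl12, further along this row of genes (82101845 to 82103400, plus strand), was too low to be tested. It had 0, 1 and 0 counts in GSK-J4 against 7, 7 and 4 counts in LPS + GSK-J4, or 2.73, 2.67 and 1.65 CPM. A level of 3 counts, the lower limit used here, equals 0.673 to 1.24 CPM depending on the library, and all 3 GSK-J4 libraries were below it. The ratio of the pooled rates was 27.0, with an exact 95% interval of 4.27 to 1126 that covers counting error only. Without the filter on low counts, edgeR gave it a log2 fold change of 4.20 (adjusted p = 0.000669) and DESeq2 one of 4.57 (adjusted p = 0.0185), which did not pass 0.01. This edgeR fit gave smaller p-values than the main fit for tested members too (Ccl22, edgeR adjusted p = 6.45e-06 against 0.000687). Its p-value for Ccl12 therefore cannot be set beside those of the main fit.

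The macrophage inflammatory proteins carried most of the signal. Ccl3 (chromosome 11, 83647844 to 83649355, minus strand) measured 85.6, 99.2 and 85.8 CPM in GSK-J4 against 1083, 1112 and 1101 CPM in LPS + GSK-J4. It was the most abundant member in GSK-J4, and its LPS + GSK-J4 libraries lay close together. The fold change was 12.2 (95% interval 10.2 to 14.4, log2 3.60 ± 0.12 SE, adjusted p = 3.09e-12). Among all genes tested, Ccl3 ranked 1194 by CPM in GSK-J4 against 33 in LPS + GSK-J4.

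Ccl4, the neighbour of Ccl3 on the opposite strand (83662584 to 83664683, plus strand), was at 23.8, 21.8 and 27.1 CPM in GSK-J4. With LPS + GSK-J4 the values were 1328, 1382 and 1361 CPM, above those of Ccl3. Its fold change of 56.4 (95% interval 46.3 to 68.6, log2 5.82 ± 0.13 SE, adjusted p = 4.41e-14) was the largest of the 8 genes and ranked 12 of all 10133. By CPM, Ccl4 went from rank 4313 in GSK-J4 to rank 28 in LPS + GSK-J4.

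Ccl5, at the other end of this second row of genes (83525778 to 83530518, minus strand), measured 9.20, 6.96 and 3.67 CPM in GSK-J4 against 95.2, 116 and 130 CPM in LPS + GSK-J4. The groups were well apart, although GSK-J4 replicate 3 was the lowest library of its group and LPS + GSK-J4 replicate 3 the highest of the other. The fold change was 16.4 (95% interval 11.8 to 22.7, log2 4.03 ± 0.22 SE, adjusted p = 1.67e-09). When both libraries numbered 3 were left out, a setting chosen after the data were seen because these libraries stood apart on the second principal component (16.4% of the variance), the log2 fold change of Ccl5 was 3.72.

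The Ccr1 ligands Ccl6 and Ccl9 lie side by side on the minus strand between Ccl5 and Ccl3, and they did not move alike. Ccl9 (83572919 to 83578636) was at 33.5, 28.5 and 20.2 CPM in GSK-J4 against 96.4, 100.0 and 64.0 CPM in LPS + GSK-J4. The groups did not overlap, and replicate 3 was the lowest in each. Its fold change of 3.12 (95% interval 2.33 to 4.18, log2 1.64 ± 0.20 SE, adjusted p = 1.58e-05) was close to the threshold. Without GSK-J4 replicate 3 it was 1.49 on the log2 scale (adjusted p = 0.000128), so the call was lost on the size of the change, and without both libraries numbered 3 it was 1.67.

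Ccl6 (83587882 to 83593087) was at 18.2, 20.9 and 16.9 CPM in GSK-J4. In LPS + GSK-J4 it was at 29.7, 21.8 and 25.2 CPM, all just above the GSK-J4 libraries. The difference of 1.36-fold (log2 0.44 ± 0.19 SE, 95% interval on the log2 scale 0.04 to 0.85) had an unadjusted p of 0.0347 and an adjusted p of 0.110 by edgeR, and so was not called. Its raw counts summed to 216 in GSK-J4 against 194 in LPS + GSK-J4, so the direction rests on the scaling between the groups. E230016K23Rik, a noncoding transcript annotated over Ccl6 on the opposite strand, averaged 0.0786 and 0.138 CPM in the 2 groups. In all 8 genes tested the 3 LPS + GSK-J4 libraries were above the 3 GSK-J4 libraries in CPM, which also held for 19.8% of all genes tested. Ccl2, Ccl7 and Ccl22 are among the 8 only because they were high in LPS + GSK-J4, so this tally carries no further weight.

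Ccl22 and Ccl24 were scarce. Ccl22 (chromosome 8, 94745590 to 94751699, plus strand) was at 0.944, 1.12 and 0.733 CPM in GSK-J4 against 4.68, 4.58 and 9.50 CPM in LPS + GSK-J4. Replicate 3 of LPS + GSK-J4 was about as high as the other two together. The fold change was 6.25 (95% interval 3.10 to 12.6, log2 2.64 ± 0.48 SE, adjusted p = 0.000687), from 11 counts in GSK-J4 against 47 in LPS + GSK-J4. Leaving out LPS + GSK-J4 replicate 3 gave a log2 fold change of 2.23 (adjusted p = 0.00293), and leaving out both libraries numbered 3 gave 2.13 (adjusted p = 0.00615).

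Ccl24 (chromosome 5, 135569937 to 135573049, minus strand) was the one member whose groups overlapped. It had 1, 4 and 3 counts in GSK-J4 against 2, 4 and 4 counts in LPS + GSK-J4. The ratio of the pooled rates was 1.88, with an exact 95% interval of 0.667 to 5.47 for counting error only, so no difference was detectable at this depth. Without the filter on low counts, the adjusted p was 0.542 by edgeR and 0.727 by DESeq2.

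**Figure D2:**
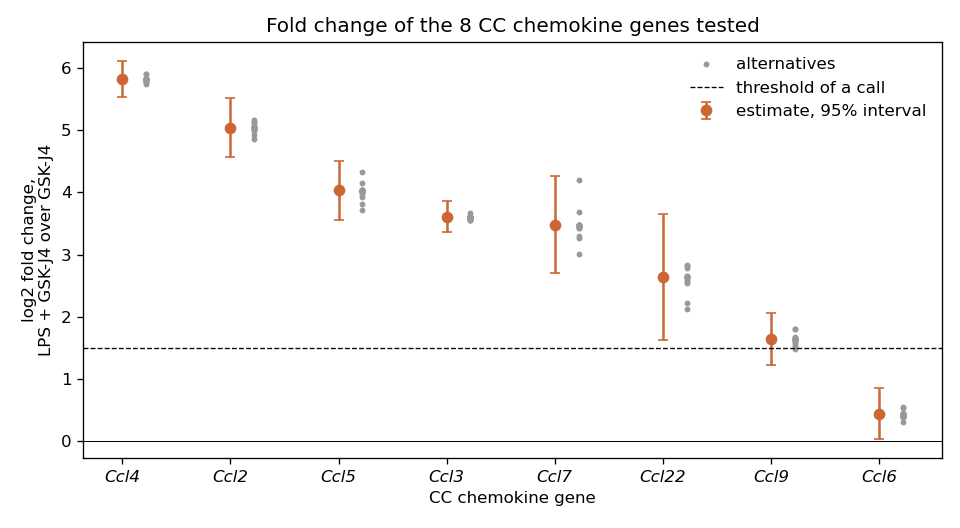
Log2 fold change of LPS + GSK-J4 over GSK-J4 for the 8 CC chemokine genes tested. Orange points are the edgeR estimates with 95% intervals, grey points the values under other settings, and the dashed line the threshold of 1.5. Ccl4 is highest at 5.82, the interval of Ccl9 crosses the threshold, and Ccl6 lies below it at 0.44.

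To compare levels between genes, CPM was divided by the exonic length of each gene in kb. In GSK-J4 the order was Ccl3 (118 ± 10.2 CPM per kb), Ccl4 (36.7 ± 4.10), Ccl6 (12.9 ± 1.42), Ccl5 (12.4 ± 5.23), Ccl9 (9.11 ± 2.24), Ccl2 (4.17 ± 0.914), Ccl7 (2.96 ± 1.95), Ccl24 (0.575 ± 0.349), Ccl22 (0.421 ± 0.0879) and Ccl12 (0.139 ± 0.241; all SD, n = 3). Ccl3 and Ccl4 were apart from each other and from the rest in every library. The ranges of Ccl6 and Ccl5, of Ccl5 and Ccl9, and of Ccl2 and Ccl7 overlapped. Those of Ccl24, Ccl22 and Ccl12 all overlapped with each other. The order of the genes within these sets was not resolved. In LPS + GSK-J4 the order became Ccl4 (2056 ± 41.3), Ccl3 (1434 ± 19.1), Ccl5 (214 ± 32.6), Ccl2 (142 ± 30.4), Ccl7 (33.5 ± 9.63), Ccl9 (28.9 ± 6.59), Ccl6 (17.7 ± 2.75), Ccl12 (4.38 ± 1.13), Ccl22 (2.82 ± 1.27) and Ccl24 (1.02 ± 0.364; all CPM per kb, SD, n = 3). Ccl7 and Ccl9 overlapped there, as did Ccl12 and Ccl22, and the highest Ccl2 library (177 CPM per kb) came close to the lowest Ccl5 library (179 CPM per kb).

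The summed level of the 10 genes was 175 ± 12.7 CPM in GSK-J4 against 2834 ± 75.9 CPM in LPS + GSK-J4 (SD, n = 3), a ratio of 16.2. As a share of the counts outside the ribosomal features Rn45s, Mir6236 and Lars2, which needs no scaling factor, the 10 genes took 0.0320% ± 0.00249 and 0.509% ± 0.0167, a ratio of 15.9. Ccl3 and Ccl4 together made up 78.4% ± 4.20 of the level per kb in GSK-J4 against 88.7% ± 0.972 in LPS + GSK-J4. Within that pair the balance turned. Ccl3 went from 59.7% ± 3.36 to 36.5% ± 0.545 of the total, and Ccl4 from 18.7% ± 3.15 to 52.3% ± 0.427. Ccl6 and Ccl9 together went from 11.1% ± 1.06 to 1.19% ± 0.200, while Ccl2 was at 2.10% ± 0.387 and 3.61% ± 0.692 (all SD, n = 3).

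**Figure D3:**
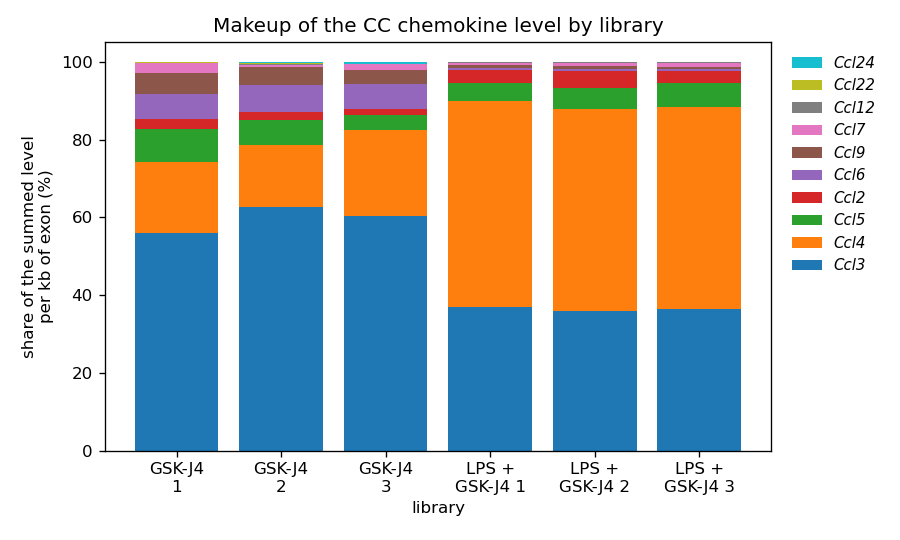
Share of each gene in the summed CC chemokine level per kb of exon (%), stacked to 100% for each of the 6 libraries. Ccl3 is the largest part in the GSK-J4 libraries (59.7% on average) and Ccl4 in the LPS + GSK-J4 libraries (52.3%).

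Ratios of counts within a library are free of the scaling between libraries. The ratio of Ccl4 to Ccl3 was 0.278, 0.219 and 0.316 in GSK-J4 against 1.23, 1.24 and 1.24 in LPS + GSK-J4. It was 4.55-fold higher with LPS and hardly varied among those 3 libraries. The ratio of Ccl9 to Ccl6 was 1.84, 1.37 and 1.20 in GSK-J4 against 3.25, 4.60 and 2.54 in LPS + GSK-J4, without overlap. For Ccl2 to Ccl7 the values were 1.00, 4.00 and 1.17 against 5.62, 5.04 and 2.99, and for Ccl5 to Ccl3 they were 0.107, 0.0701 and 0.0427 against 0.0879, 0.104 and 0.118. Both of these overlapped between the groups. A 2-sided exact permutation test gave p = 0.1 for each of the first 2 ratios, the smallest value that 3 libraries against 3 allow, and p = 0.2 and 0.3 for the others. Adjusted over the 4 ratios, the exact permutation p was 0.2, 0.2, 0.267 and 0.3.

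**Figure D4:**
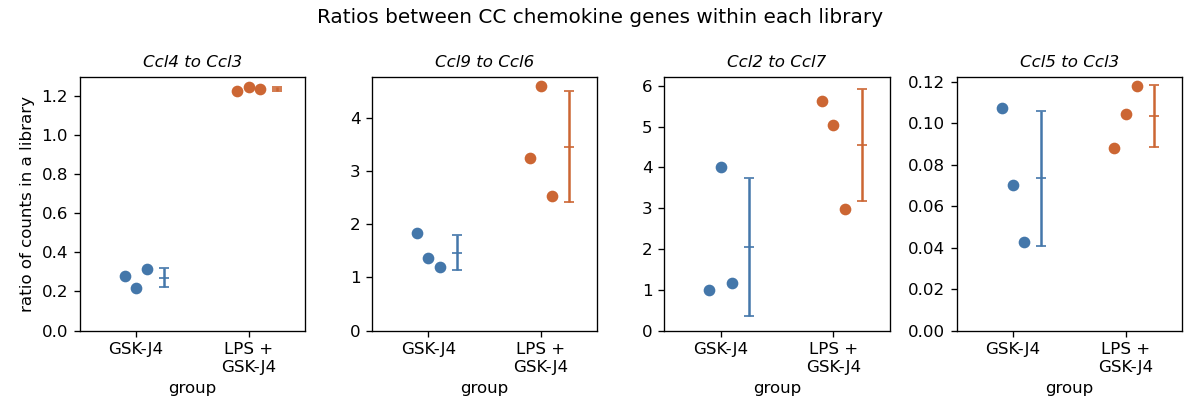
Ratio of counts between 2 CC chemokine genes in each library, by group. Points are libraries and bars to their right the mean ± SD (n = 3). The ratio of Ccl4 to Ccl3 sits near 1.24 in all 3 LPS + GSK-J4 libraries and between 0.219 and 0.316 in GSK-J4.

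In LPS + GSK-J4 the SD of the level over replicates was 1.33% of the mean for Ccl3, 2.01% for Ccl4, 21.4% for Ccl2, 15.3% for Ccl5 and 22.8% for Ccl9. Poisson counting error at these depths, which takes fragments as independent molecules and covers counting only, would give 1.89%, 1.70%, 5.83%, 5.90% and 6.72%. In GSK-J4 the same genes, in the same order, had an SD of 8.64%, 11.2%, 21.9%, 42.1% and 24.6% of the mean, beside a counting error of 5.37%, 10.5%, 27.4%, 19.4% and 9.62%. Of these genes, Ccl5 and Ccl9 were above counting error in both groups, and Ccl4 slightly so in both. Ccl3 was above it in GSK-J4 but not in LPS + GSK-J4, and Ccl2 in LPS + GSK-J4 but not in GSK-J4. With 3 libraries a group these spreads are rough, and their differences between genes were not tested.

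The 14 other CC chemokine genes in the tables had few counts or none. None passed the filter, 6 had no count in any library, and 13 had at most 3 counts in every library. The 6 include Ccl21a, Ccl21b, Ccl21c and Ccl27b. Only uniquely placed fragments were counted, so for genes with near-identical copies the lack of counts does not show absence. The highest was Ccl25, a thymus and gut chemokine, with 10, 2 and 5 counts in GSK-J4 against 5, 3 and 4 in LPS + GSK-J4. Ccl28 had 0, 1 and 0 against 2, 1 and 2 counts, Ccl20 had none against 2, 1 and 1, and Ccl17, which lies near Ccl22, had at most 1 count in a library. In fits without the filter, edgeR and DESeq2 called none of the 8 that had a count, and 1 of the 8 had an unadjusted p under 0.05 by edgeR.

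Of 14 genes for CC chemokine receptors and scavengers, 2 passed the filter. Ccrl2, a non-signalling receptor that binds chemerin, was at 352, 325 and 277 CPM in GSK-J4 against 1858, 1759 and 1836 CPM in LPS + GSK-J4. It rose 5.71-fold (log2 2.51 ± 0.12 SE, edgeR adjusted p = 1.48e-10). Ccr1, which binds Ccl3, Ccl5, Ccl6 and Ccl9, was at 27.1, 33.4 and 20.5 against 31.6, 31.7 and 22.3 CPM. The groups overlapped, with a log2 difference of 0.06 (95% interval -0.38 to 0.50, adjusted p = 0.873). For Ccr2, the receptor of Ccl2, Ccl7 and Ccl12, the counts were 2, 0 and 0 in GSK-J4 against 2, 3 and 0 in LPS + GSK-J4. Ccr9 had 1, 0 and 0 against 1, 0 and 2 counts, and Ackr1, a scavenger of chemokines, had none against 1, 2 and 1. Like Ccr2, the other 11 untested receptor genes had at most 3 counts in every library.

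Of 27 genes that act downstream of chemokine receptors (G protein subunits, receptor kinases, arrestins, RGS proteins and effectors of migration), 25 were tested. Of these 25, 4% were called higher, near the 2.95% of all genes tested, so the count is no result about this list. Only Rgs16, which shortens Gi signalling, was called, at 51.2, 43.1 and 51.3 CPM in GSK-J4 against 105, 130 and 184 CPM in LPS + GSK-J4. Its log2 fold change of 1.53 ± 0.18 SE (edgeR adjusted p = 1.23e-05) sat on the threshold, and it was 1.28 without LPS + GSK-J4 replicate 3 and 1.44 without GSK-J4 replicate 2. The 4 most abundant others were not called. The log2 differences were -0.15 for Gnai2, 0.28 for Gnb1, 0.11 for Rgs1 and -0.54 for Prex1, an exchange factor for Rac (edgeR adjusted p = 0.446, 0.0802, 0.692 and 0.00435, the last below the size threshold). Gng2, a G protein gamma subunit chosen after its values were seen, was at 105, 110 and 86.9 CPM against 51.9, 42.4 and 26.4 CPM. At a log2 difference of -1.32 (edgeR adjusted p = 9.39e-05) it was not called either, although it was at -1.55, and called, without LPS + GSK-J4 replicate 1. The median over the 25 genes was -0.00.

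The members on chromosome 11 form 2 rows, and the annotation places 45 other genes within 100 kb of a member, of which 25 are in the count tables and 12 were tested. Of these 12, 1 was called higher, beside 2.95% of all genes tested. Heatr9, which lies 3603 bases from Ccl5 (83511736 to 83522175, minus strand), had no count in any GSK-J4 library and 18, 21 and 15 counts in LPS + GSK-J4. Its mean level of 7.08 CPM was at least 6.43-fold higher than 3 counts in the shallowest GSK-J4 library (edgeR adjusted p = 1.06e-05). Heatr9 passed the filter only through the LPS + GSK-J4 libraries, where it was high, so its call carries no further weight. The 4 most abundant others were not called. Por, near Ccl24, had a log2 difference of -0.81 (edgeR adjusted p = 0.00068) and Wfdc17, near Ccl4, one of -0.74 (adjusted p = 0.0150). Ciapin1, near Ccl22, was at 0.83 (adjusted p = 0.00149) and Hip1 at 0.21 (adjusted p = 0.459). The median over the 12 was 0.18.

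**Figure D5:**
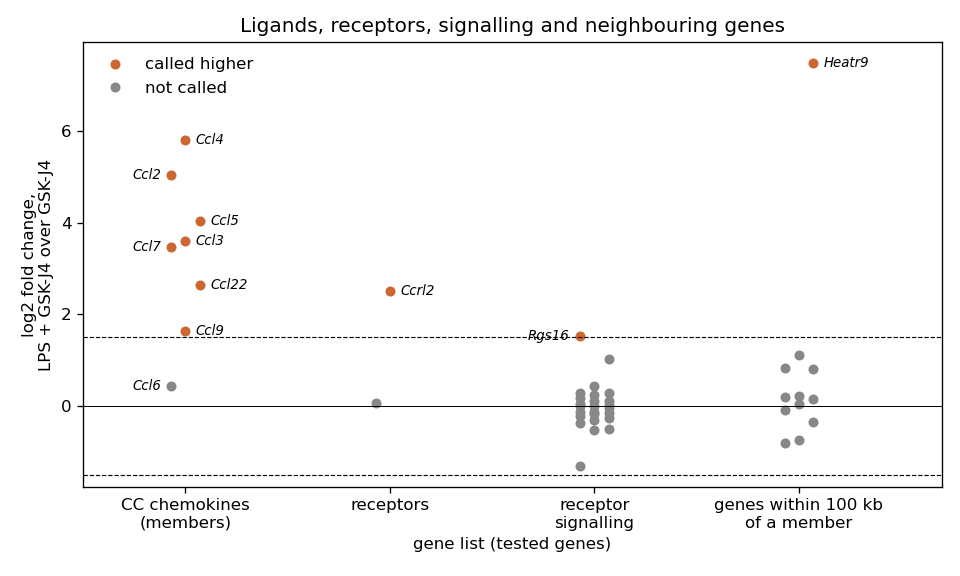
Log2 fold change of LPS + GSK-J4 over GSK-J4 for tested genes in 4 lists (CC chemokines, their receptors, downstream signalling genes, and genes within 100 kb of a chemokine). Orange points were called higher, dashed lines mark ±1.5, and Heatr9, with no count in GSK-J4, is drawn at its fitted value, which is no bound. In the 3 lists other than the CC chemokines, Ccrl2, Rgs16 and Heatr9 are the points called.

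Counts on genes summed to 2597505 at the lowest and 3472716 at the highest library, and Rn45s took 22.2 to 32.4% of them in GSK-J4 against 45.8 to 48.1% in LPS + GSK-J4, so less depth was left for other genes in the latter. The microglia markers were present in every library, with a summed level of 3106 to 3212 CPM in GSK-J4 against 2431 to 2487 CPM in LPS + GSK-J4, and 0 of 10 were called by edgeR or DESeq2, although 8 were lower at an unadjusted p under 0.05. Among all 10133 genes tested, 1958 were higher and 1573 lower at an unadjusted p under 0.05 by edgeR, and 2.95% were called higher. The marker counts are to be read beside these. Markers of other glia moved with the groups. The 8 astrocyte markers summed to 53.9 to 59.4 CPM against 131 to 159 CPM, with 1 of 7 tested called higher (Gfap, log2 1.70) and 5 higher at an unadjusted p under 0.05. The 9 oligodendrocyte markers summed to 190 to 221 against 366 to 423 CPM, with 0 of 7 called by edgeR or DESeq2 and 5 higher at an unadjusted p under 0.05. The 6 mesenchymal markers summed to 80.1 to 281 against 138 to 427 CPM, with 0 of 6 called by either tool and 1 higher at an unadjusted p under 0.05. Endothelial markers summed to 13.9 to 17.7 against 21.5 to 57.0 CPM, with 1 of 1 tested called higher by edgeR but not by DESeq2 and Cldn5 at 0 counts, and neuron markers to 6.06 to 7.08 against 14.1 to 16.4 CPM. Border macrophage markers summed to 55.7 to 72.5 against 34.7 to 55.3 CPM. Dendritic cell markers stayed at or below 7.02 CPM and lymphocyte and neutrophil markers at or below 5.37 CPM, with Cd3d at 0 counts. The part of these cells in the chemokine differences was not tested, and in bulk RNA more cells of a type and more RNA per cell cannot be told apart.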

How the data were processed

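RNA-seq counts of 3 GSK-J4 and 3 LPS + GSK-J4 libraries of PM were used. A directional kit and rRNA depletion were part of the library preparation. Per the labels and the methods, the authors used CASAVA 1.8.2, Trimmomatic 0.33 and STAR 2.5.1 with mm10. The deposited tables hold raw counts of fragments per gene, without normalization, in an unstranded and 2 stranded columns. STAR counts uniquely placed fragments that overlap 1 gene, so near-identical copies are undercounted. The annotation used for counting is not given in the sources used here. The reverse-strand column, set by the kit, was used here.

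Groups and replicate numbers came from the titles. In R 4.3.3 with edgeR 4.0.16, genes passed filterByExpr (minimum count 10, minimum total 15), were scaled by TMM and tested by the robust quasi-likelihood test without covariates, with Benjamini-Hochberg adjustment over all 10133 genes tested. Calls needed a log2 fold change of 1.5 or more in size with an adjusted p no higher than 0.01. Alternatives were unstranded counts, DESeq2 1.42.0 (size factors or Wald test), other filters and thresholds, a replicate block, removal of Rn45s, Mir6236 and Lars2, and leaving out libraries.

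Positions and exonic lengths are those of GENCODE on mm10, and promoter sequences those of RefSeq on GRCm38.p6, by symbol. Ratios of pooled counts have exact binomial intervals, which cover counting error only, since no molecular identifiers are described. Figures were drawn with matplotlib 3.10.9. Genes were named by a rule: every member, and in each other list the genes called and the 4 with the highest mean CPM. Among the 27 signalling genes, Grk2 and Grk3 were matched by their older symbols. Another 2 genes that stood in the receptor and marker lists are not reported here. Members and lists were chosen with earlier results of these data known.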

Additional observations from a re-analysis of the deposited data

Results flagged for a closer look

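Fragments on the strand opposite to 2 of the genes, in a column that the comparisons do not use, were above every GSK-J4 library in each LPS + GSK-J4 library once scaled to library size. Ccl3 had 20 such counts in the 3 LPS + GSK-J4 libraries (6, 10 and 4) and 9 in the 3 GSK-J4 libraries (4, 4 and 1). Ccl4 had 20 (6, 9 and 5) against 1 (0, 1 and 0). These were 0.239% of all Ccl3 fragments in LPS + GSK-J4 and 0.859% in GSK-J4, and 0.193% and 0.366% of all Ccl4 fragments, while the whole libraries had 0.966 to 1.38% of their gene counts on that strand. The share of all genes whose opposite-strand counts were apart in this way is not given here, so the separation is not shown to be unusual. With 3 libraries a group, no library was tested as an outlier.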

How the results depend on the processing

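Across the alternatives, 124 of 125 values of the 8 member fold changes kept their direction and their side of the threshold, with Ccl9 without GSK-J4 replicate 3 (1.49) as the exception. The settings with looser thresholds and with an unadjusted p reused the main fit. Their fold changes could not move, so they lend the tally no support. Ccl12 and Ccl24 had no value to compare. The members called numbered 6 to 7 with a library left out and 4 where at least 10 counts were required in every library, a filter that removes Ccl2, Ccl7 and Ccl22 and left 232 of all genes called and 0 genes near a member. With looser thresholds (log2 fold change of 1, adjusted p of 0.05), 1129 genes and 3 signalling genes were called. Signalling genes called fell from 1 to 0 under the DESeq2 Wald test, without a filter, with the replicate block and without both libraries numbered 3, where Rgs16 was at 1.48, 1.47, 1.49 and 1.33, and ranged from 0 to 2 with a library left out. Genes near a member ranged from 1 to 2, with 2 called without GSK-J4 replicate 1. Leaving out a library turned the sign of 2 uncalled genes, Ccr1 (-0.084 to 0.24) and Rgs1 (-0.014 to 0.31). All genes called ranged from 351 to 470 with a library left out. The deviations of same-numbered libraries from their group means had r = -0.01, 0.12 and 0.30, so the numbers were not taken as pairs, and with the replicate block 396 genes and 7 members were called. Of the GSK-J4 libraries, replicate 3 correlated best with its own number, and replicates 1 and 2 did not. Of the LPS + GSK-J4 libraries, replicates 2 and 3 did, and replicate 1 did not. Fits without a filter moved the median log2 fold change of all genes to 0.12 and 0.13, the second by DESeq2. Ccl12, Ccl22 and Ccl24 rest on few counts, which limits their precision.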
